A study of Mus musculus with 16 samples.

Results

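Cxcl1, Cxcl2, Cxcl3, Ppbp and Cxcr2 encode chemokines that draw neutrophils into tissue and the receptor that neutrophils use to follow them. The 5 genes were taken by symbol from the 31053 genes of each library's count matrix, and all 5 were present. Their values were described in all sorted cells of a library and in cell classes set by marker genes, across the 4 groups of the study. The study asked what part dendritic cell migration plays in the response of tumors to radiation. Its single-cell data served to compare conventional dendritic cells of a tumor that responds well and of one that responds poorly.

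The libraries held live CD45+ leukocytes sorted from subcutaneous tumors of the right flank of C57BL/6J mice, the only genotype labelled in any group. The 2 tumors were the colorectal carcinoma MC38 and the pancreatic adenocarcinoma Panc02-SIY, which carries the SIY model antigen, both grown from lines. Tumors of about 5 mm were left untreated or were given a single CT-guided dose of 12 Gy, and were taken 24 h later. Each of the 4 groups (MC38 untreated, MC38 irradiated, Panc02-SIY untreated and Panc02-SIY irradiated) had 4 libraries. The labels give no age. The series text gives as many animals as libraries in a group and the study's methods give fewer, so libraries may share an animal, and p-values measure only the spread between libraries. The sort for CD45 was meant to remove tumor cells and stroma, which can also make these chemokines.

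Cxcl1, Cxcl2, Cxcl3 and Ppbp are small secreted proteins with a Glu-Leu-Arg motif before the first cysteines, and all are ligands of the G protein-coupled receptor Cxcr2. In tissue, macrophages, mast cells, stroma and neutrophils themselves release them within hours of injury, driven in part by Il1 and Tnf through NF-kB. Neutrophils carry Cxcr2, leave the blood along the gradient, and lose the receptor from the surface after binding. Ppbp is stored mainly in platelets, where its product is released on activation.

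The 4 ligand genes lie on the same strand within 137 kb of chromosome 5 (GRCm38). Cxcl2 (ENSMUSG00000058427) is at chr5:90903871-90905938 and Cxcl1 (ENSMUSG00000029380) at chr5:90891241-90893115. Cxcl3 (ENSMUSG00000029379) is at chr5:90786103-90789600 and Ppbp (ENSMUSG00000029372) at chr5:90768518-90770063. The receptor gene Cxcr2 (ENSMUSG00000026180) is on chromosome 1, at chr1:74153989-74161246. The last 500 bases of the members' transcripts, where a 3′ library places its reads, shared 0 stretches of 31 bases, so exact matches of that length do not mix the members' reads.

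The promoters are shown because Cxcl1, Cxcl2 and Cxcl3 share a run of letters that holds the sequence of an NF-kB site and that the other members lack. The sequences are the RefSeq plus strand of GRCm38.p6, 110 bases before and 10 bases from the annotated start, at chr5:90891135-90891254 (Cxcl1), chr5:90903789-90903908 (Cxcl2), chr5:90785991-90786110 (Cxcl3) and chr5:90768408-90768527 (Ppbp). Capitals mark GGGAATTTCCC, the longest run common to the 250 bases before the start of Cxcl1, Cxcl2 and Cxcl3.
Cxcl1: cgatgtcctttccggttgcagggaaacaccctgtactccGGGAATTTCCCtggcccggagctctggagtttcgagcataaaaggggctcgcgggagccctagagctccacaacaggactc
Cxcl2: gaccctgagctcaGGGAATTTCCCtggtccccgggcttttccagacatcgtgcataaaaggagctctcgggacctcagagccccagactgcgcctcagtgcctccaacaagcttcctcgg
Cxcl3: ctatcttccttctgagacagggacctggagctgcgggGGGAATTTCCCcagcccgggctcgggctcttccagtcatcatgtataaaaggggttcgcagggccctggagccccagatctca
Ppbp: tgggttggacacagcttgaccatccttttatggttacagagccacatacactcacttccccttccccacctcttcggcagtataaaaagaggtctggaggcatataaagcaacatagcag
The 11 letters were searched on both strands of the RefSeq windows of 300 bases around each gene's start. The match ended 61 bases before the start in Cxcl1, 87 in Cxcl2 and 63 in Cxcl3, and was not in the windows of Ppbp or Cxcr2. It was in 14 of 32851 such windows (0.0426%), and in 0 of the 12 genes with a window among 15 NF-kB targets listed for comparison. A match of letters is a description and not evidence that the site is bound.

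The libraries first had to be cleared of shared barcodes. The 8 MC38 libraries listed 9843 barcodes but only 2632 distinct sequences, of which 1239 stood in several libraries and 769 in all 8, the second library holding a median of 5.70% of the UMIs of the richest. Each barcode was therefore kept only in its richest library of a tumor, which left 20768 of 28678 barcodes, 147 to 4452 per library, with 1385711 to 43708746 UMIs (unique molecules counted) and a median of 2991 to 11097 UMIs per barcode. MC38 groups held 1327 and 1305 barcodes, and Panc02-SIY groups 9405 and 8731. A class needed 3 of its markers in a barcode. Barcodes that fit several classes (7.05%) were called mixed, which also served as the treatment of doublets, and those that fit none (14.04%, median 852 UMIs) ungated. Of the 10 leading genes of the neutrophil class, 7 were its own markers, S100a8, S100a9, G0s2, Hdc, Mmp9, Csf3r and Retnlg, and 0 were markers of another class. The gate itself favors both counts, so they do not test it. Barcodes near the cut (3 markers only, or a second class above 0.5 of the first) were 8.66% of neutrophils. They were 22.4% of macrophages, 33.9% of monocytes and 37.5% of conventional dendritic cells. None of the 5 members was a marker. Values are CPM, a gene's counts scaled to 1000000 UMIs of the population named. Genes were called by the edgeR quasi-likelihood test at an adjusted p under 0.1 and a fold over 1.3.

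Cxcl2, a strong neutrophil attractant, rose with radiation in Panc02-SIY tumors and was not called in MC38 tumors. In all CD45+ cells of untreated Panc02-SIY tumors Cxcl2 stood at 338, 258, 198 and 229 CPM in replicates 1 to 4 (255 ± 59.9, SD, n = 4). After 12 Gy it stood at 633, 506, 518 and 349 CPM (502 ± 117), above every untreated library. The log2 fold change was 0.90 (SE 0.20, adjusted p = 0.00955), and Cxcl2 was still called when any one library was left out. In a sum over all CD45+ cells, more cells of a type and more RNA per cell cannot be told apart.

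In MC38 tumors the same sum of cells held 696, 568, 685 and 550 CPM of Cxcl2 untreated (625 ± 76.6) and 1020, 512, 531 and 721 CPM irradiated (696 ± 236). The groups overlapped, and the log2 fold change was 0.22 (SE 0.20, adjusted p = 0.585). The difference between the tumors' responses was -0.68 on the log2 scale, MC38 minus Panc02-SIY (SE 0.28, unadjusted p = 0.0301, adjusted p = 0.411), so the responses were not shown to differ. In that test 21 genes (0.145%) were called, and 0 of the 4 members tested by edgeR or by DESeq2, with Cxcl2 and Cxcl3 at an unadjusted p under 0.05.

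Cxcr2, the receptor itself, also rose in irradiated Panc02-SIY tumors. Its level was 52.9, 35.8, 25.1 and 21.8 CPM in untreated libraries (33.9 ± 14.02) and 97.1, 66.3, 67.1 and 39.2 CPM in irradiated ones (67.4 ± 23.6). The groups overlapped, since irradiated replicate 4 lay below untreated replicate 1. The log2 fold change was 0.92 (SE 0.27, adjusted p = 0.0408), and the call was lost without untreated replicate 3 (adjusted p = 0.103), untreated replicate 4 (0.108) or irradiated replicate 1 (0.123), and when only the 2 groups compared were fitted (0.107). In MC38 tumors Cxcr2 was sparse, with 92 UMIs untreated (2.29 to 4.94 CPM) and 99 irradiated (4.15 to 7.94 CPM), and the log2 fold change of 0.60 was not called (SE 0.42, adjusted p = 0.448).

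Of the 4 members with enough counts, 2 rose in irradiated Panc02-SIY tumors, where 12.5% of the 14464 genes tested were called, and 0 were called in irradiated MC38 tumors, where 9.29% were. In the MC38 test 0 members had an unadjusted p under 0.05, and DESeq2 called 0. Each group entered 1 treatment comparison and 1 comparison of tumors, so these share libraries.

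**Figure D1:**
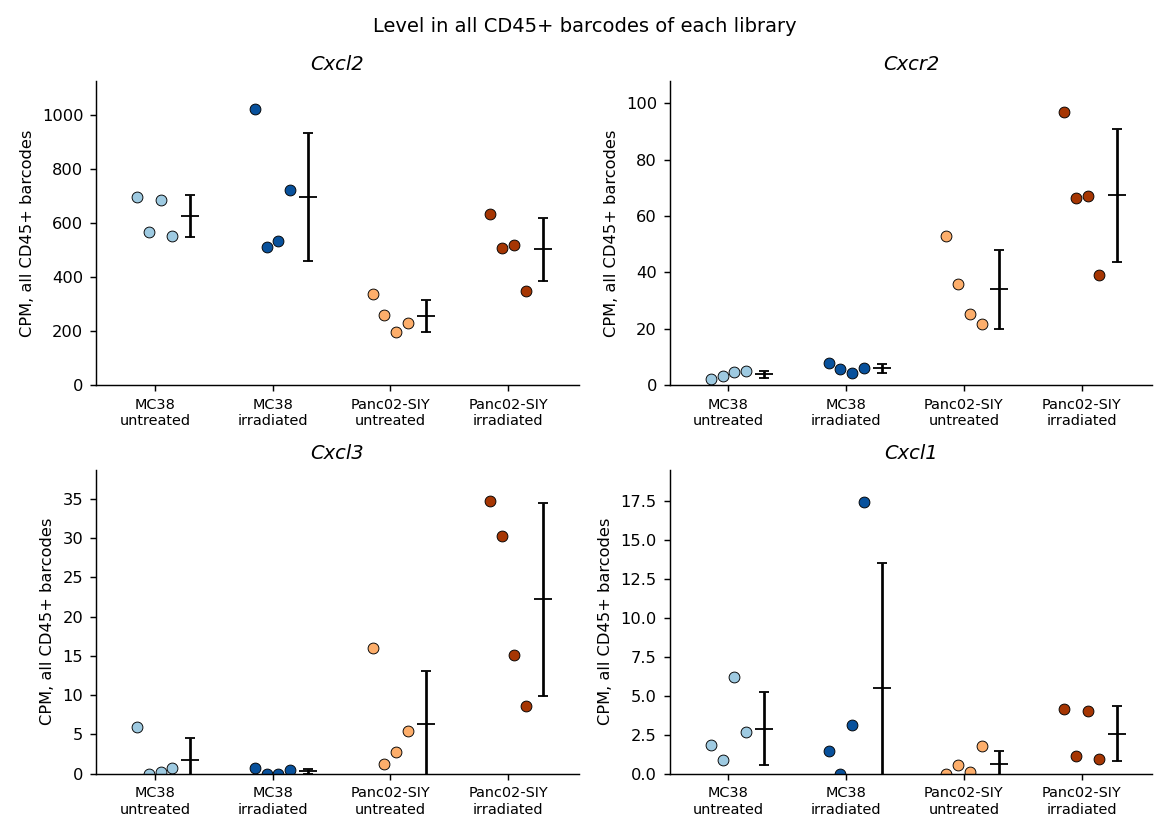
CPM of Cxcl2, Cxcr2, Cxcl3 and Cxcl1 (vertical axes, linear) in all CD45+ cells of each library, by group. Points are the 4 libraries of a group, and the line with bars is their mean ± SD, with bars cut at 0. Irradiated Panc02-SIY libraries hold 349 to 633 CPM of Cxcl2 and lie above the untreated ones, while the 2 MC38 groups overlap.

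Cxcl3, a close relative of Cxcl2, gave few counts and came in bursts. In all CD45+ cells of Panc02-SIY tumors it stood at 15.999, 1.18, 2.71 and 5.42 CPM untreated and at 34.7, 30.2, 15.1 and 8.68 CPM irradiated. The groups overlapped, and the log2 fold change of 1.81 was not called (SE 0.77, adjusted p = 0.162). It was called without untreated replicate 1 (2.63, adjusted p = 0.0391) or irradiated replicate 4 (2.15, adjusted p = 0.0995). In MC38 tumors Cxcl3 had 33 UMIs untreated, 26 of them in 1 barcode of replicate 1, and 5 UMIs irradiated, and was not called (log2 fold change -2.33, SE 1.79, adjusted p = 0.503).

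Cxcl1, the chemokine also known as KC, had between 72 and 165 UMIs in each group. Panc02-SIY tumors held 0, 0.561, 0.0847 and 1.81 CPM untreated and 4.17, 1.15, 4.02 and 0.972 CPM irradiated, a log2 fold change of 1.48 that was not called (SE 1.02, adjusted p = 0.426). Of the 89 untreated UMIs, 51 came from 1 barcode gated by markers of non-immune cells. MC38 tumors held 1.83, 0.877, 6.19 and 2.71 CPM untreated and 1.44, 0, 3.11 and 17.4 CPM irradiated, and the log2 fold change of 1.19 was not called either (SE 1.00, adjusted p = 0.551). Its sign rested on irradiated replicate 4, where 1 barcode held 90 of 148 UMIs, and without that library it was -0.78 (adjusted p = 0.755).

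Ppbp, the platelet chemokine, was too low for the test in all CD45+ cells and in each class tested, and gave 24 UMIs in all 16 libraries. Of these, 13 were in MC38 irradiated replicate 4, with 11 in a single mixed barcode, and the 7 of untreated MC38 tumors were in macrophages. No Panc02-SIY neutrophil had a Ppbp UMI, which allows shares of up to 0.469% of 639 untreated and 0.281% of 1066 irradiated cells with a UMI. Such limits, and the binomial intervals given for shares, cover counting error only. No barcode passed the gate for platelets, and platelet markers summed to 1.74 to 17.5 CPM.

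In Panc02-SIY tumors most molecules of Cxcl2 and Cxcr2 lay in neutrophils. The neutrophil class held 76.9% ± 4.00 of Cxcl2 UMIs untreated and 73.0% ± 3.62 irradiated (SD, n = 4), and 84.4% ± 4.12 and 90.1% ± 0.811 of Cxcr2 UMIs. Mixed barcodes held a further 10.1% and 10.3% of Cxcl2. Of the Cxcl2 UMIs in mixed barcodes, 87.9% untreated and 57.1% irradiated were in barcodes that also passed the neutrophil gate. The ungated barcodes held 329 Cxcl2 UMIs untreated and 1431 irradiated, 75.7% and 86.6% of them in barcodes with 1 or 2 neutrophil markers. Those barcodes are not counted as neutrophils, and they held only 4 Cxcr2 UMIs untreated and 4 irradiated. Of their 249 and 1239 Cxcl2 UMIs, 3 barcodes held 153 and 612. At the ungated median of 852 UMIs, 1 molecule is enough to count a marker.

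In MC38 tumors macrophages held most molecules of Cxcl2 on average over the libraries of a group, though not in each irradiated library. Macrophages held 76.7% ± 8.90 of the UMIs untreated and 57.4% ± 18.8 irradiated, and mixed barcodes 17.2% ± 5.78 and 33.6% ± 16.5. Neutrophils held 0.79% and 1.03%. Of Cxcl1 UMIs, macrophages held 60 of 72 and 161 of 165. For Cxcr2, the macrophage class held 33.1% and 38.0% of the few UMIs and the mixed barcodes 34.9% and 28.8%.

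**Figure D2:**
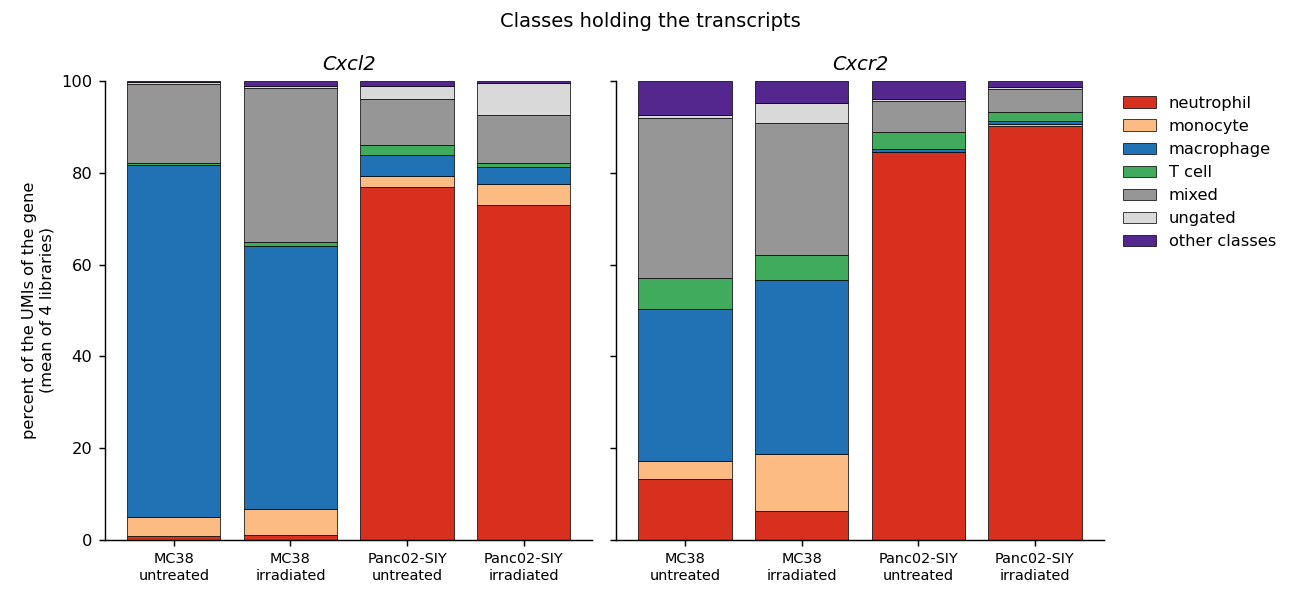
Share of each library's Cxcl2 and Cxcr2 UMIs (percent, vertical axis, from 0) held by each cell class, as the mean of the 4 libraries of a group, stacked. Neutrophils hold 73.0% or more of both genes' UMIs in Panc02-SIY tumors, and macrophages hold 76.7% and 57.4% of Cxcl2 UMIs in MC38 tumors.

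Neutrophils were scarce in MC38 tumors and common in Panc02-SIY tumors. Their share of CD45+ barcodes was 5.53% to 9.97% in untreated Panc02-SIY libraries (7.45% ± 2.21) and 7.93% to 15.3% in irradiated ones (13.0% ± 3.39), which overlapped. The difference of 5.53 percentage points did not pass an exact 2-sided permutation test (p = 0.0857, adjusted over 4 comparisons 0.114), where 0.0286 is the smallest p that 4 against 4 libraries allow. MC38 tumors held 6 neutrophil barcodes untreated (0.474% ± 0.385) and 10 irradiated (0.865% ± 0.468). A further 29 and 38 MC38 barcodes passed the neutrophil gate but were mixed, and held 29.1% and 9.60% of the Cxcl2 UMIs of mixed barcodes. The share was lower in MC38 than in Panc02-SIY tumors by 6.97 points untreated and 12.1 points irradiated, with no overlap (exact permutation p = 0.0286 for each, adjusted 0.0571).

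In Panc02-SIY tumors the mean neutrophil share and the Cxcl2 and Cxcr2 levels of the summed cells were all higher after radiation. Between the tumors, MC38 had the lower neutrophil share and Cxcr2 level but the higher Cxcl2 level. Summed neutrophil markers ranged over 910 to 2772 CPM in untreated and 1737 to 4066 CPM in irradiated Panc02-SIY libraries, against 289 to 307 and 388 to 490 CPM in MC38. With radiation in Panc02-SIY tumors, 5 of 10 neutrophil markers, 5 of 8 monocyte markers and 4 of 8 macrophage markers rose and 0 fell, where 6.57% of all genes rose and 5.89% fell. The monocyte class took 1.51% ± 1.02 of barcodes untreated and 4.83% ± 0.653 irradiated, and the macrophage class 15.8% ± 8.18 and 11.7% ± 5.22.

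When the neutrophil class was left out, an alternative chosen after the data were seen, Cxcl2 still rose in irradiated Panc02-SIY tumors (log2 fold change 1.18, SE 0.20, adjusted p = 0.00207). The sum without the neutrophil class still held mixed barcodes that passed the neutrophil gate, with 1908 Cxcl2 UMIs untreated and 1744 irradiated. Cxcr2 no longer passed (0.32, SE 0.33, adjusted p = 0.648). The class left out held 1852 of 2167 Cxcr2 UMIs untreated and 2901 of 3221 irradiated, so few were left to test. With mixed and ungated barcodes left out as well, only monocytes, macrophages, dendritic, T, NK and B cells were summed. The values were then 1.09 for Cxcl2 (SE 0.23, adjusted p = 0.0087) and 0.45 for Cxcr2 (adjusted p = 0.608). Untreated and irradiated, macrophages held 1049 and 1041 of the Cxcl2 UMIs, T cells 421 and 290, and monocytes 260 and 956 in 121 and 425 barcodes. By the same test Cxcl2 was not called within macrophages (adjusted p = 0.744) or monocytes (0.954). The part of class sizes in the rise of the sum was not tested. For MC38 tumors the same sum gave -0.01 for Cxcl2 (adjusted p = 1) and 1.04 for Cxcr2 (adjusted p = 0.243).

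**Figure D3:**
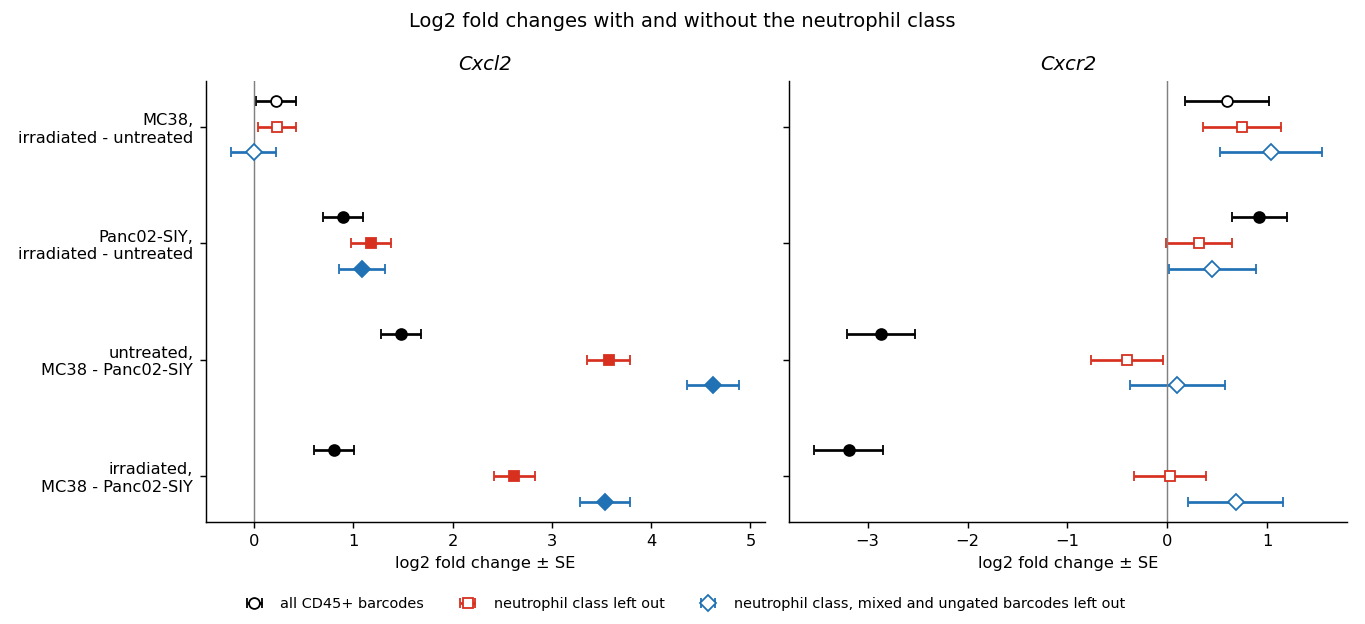
Log2 fold changes ± SE (horizontal axis) of Cxcl2 and Cxcr2 in the 4 comparisons (vertical axis). Values are shown with all barcodes, with neutrophils left out, and with neutrophils, mixed and ungated barcodes left out. Filled points were called. In irradiated against untreated Panc02-SIY tumors Cxcl2 stays between 0.90 and 1.18, and Cxcr2 is called only with all barcodes.

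Within Panc02-SIY neutrophils, none of the members was called after radiation. Cxcl2 stood at 6118, 6796, 6638 and 10030 CPM untreated and 5484, 6536, 6256 and 8895 CPM irradiated (7395 ± 1780 and 6793 ± 1470, log2 fold change -0.10, SE 0.20, adjusted p = 0.966). Cxcr2 stood at 1011, 1038, 926 and 1090 CPM untreated and 1075, 1015, 962 and 1288 CPM irradiated (1016 ± 68.4 and 1085 ± 143, log2 fold change 0.11, SE 0.15, adjusted p = 0.947). For both genes the groups overlapped, and 1 SE of the fold change was at most 0.20 on the log2 scale.

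The 2 sparse ligands were separated between the groups without passing the test. Cxcl3 held 66.7, 12.2, 106 and 109 CPM in untreated neutrophils and 249, 323, 145 and 184 CPM in irradiated ones (log2 fold change 1.62, SE 0.55, unadjusted p = 0.0215, adjusted p = 0.703). Its UMIs were concentrated, with 134 in 30 of 639 untreated and 591 in 78 of 1066 irradiated neutrophils, the top 10 cells holding 71.6% and 46.9%. Cxcl1 held 0, 2.03, 3.94 and 6.66 CPM untreated, from 7 UMIs, and 11.6, 12.4, 25.3 and 10.97 CPM irradiated, from 42 UMIs (log2 fold change 1.94, SE 0.59, unadjusted p = 0.00298, adjusted p = 0.48). For both genes every irradiated library was above every untreated one, a pattern whose share among all genes tested is not given here. In this class 2 of 7769 genes (0.0257%) were called and 499 had an unadjusted p under 0.05. DESeq2 also called 0 of the members.

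**Figure D4:**
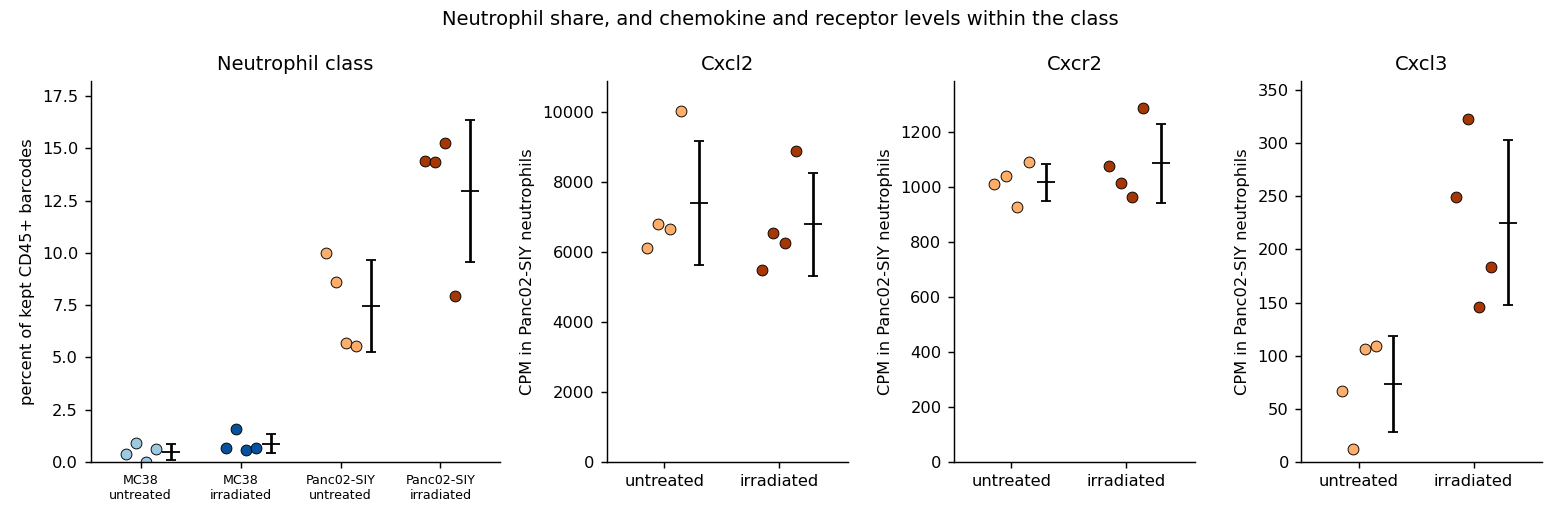
Neutrophil share of CD45+ barcodes (percent) in each library of the 4 groups, and CPM of Cxcl2, Cxcr2 and Cxcl3 in the neutrophils of Panc02-SIY libraries, with mean ± SD. Neutrophil shares reach 15.3% in Panc02-SIY tumors, Cxcl2 and Cxcr2 overlap between untreated and irradiated neutrophils, and Cxcl3 does not.

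Most Panc02-SIY neutrophils had a UMI of the ligand Cxcl2, and most had one of the receptor Cxcr2. Of 1705 Panc02-SIY neutrophils, 77.4% had a Cxcl2 UMI, 73.7% a Cxcr2 UMI and 56.4% both. Shares this high overlap in many cells even when the genes are detected independently, so the share with both does not show a link. Cxcl2 was detected in 77.9% of untreated (95% exact binomial interval 74.5 to 81.1) and 77.0% of irradiated neutrophils (74.4 to 79.5), and in 73.3% and 71.9% of those thinned to 1000 UMIs. Cxcr2 was detected in 77.3% and 71.5%, or 59.2% and 55.7% after thinning. B cells, which should lack both, gave Cxcl2 UMIs in 3.45% and 1.67% of cells and Cxcr2 UMIs in 1.72% and 1.67%, at median depths of 3812 and 3327 UMIs against 2526 and 2201 in neutrophils.

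In the thinned neutrophils, the 924 with a Cxcr2 UMI held a mean of 6.31 Cxcl2 UMIs and the 697 without one held 8.79, over the 8 libraries. The level was lower beside Cxcr2 in 7 of 8 libraries. Cxcl3 went the same way, with 0.108 against 0.231 UMIs and 7 of 8 libraries. This split was made after the values were seen, the cells of a library share its free RNA, and a weak relation in sparse counts is given as a description only.

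MC38 neutrophils were too few to test, with 115 Cxcl2 UMIs in 5 of 6 untreated and 119 in 4 of 10 irradiated barcodes. Cxcr2 had 11 and 6 UMIs in them.

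Levels were ranked over neutrophils, monocytes, macrophages, dendritic, T, NK and B cells. Among these classes of Panc02-SIY tumors, Cxcl2 was highest in neutrophils, with a mean of 7094 CPM over 8 libraries, then 211 in monocytes and 127 in macrophages. Neutrophils exceeded monocytes by 5.51 on the log2(CPM + 10) scale (SD 1.51, higher in 8 of 8 libraries, exact sign-flip permutation p = 0.0078, the smallest possible, 0.0703 adjusted over 36 pairs). Monocytes and macrophages did not differ beyond their spread (0.34, higher in 4 of 8). Macrophages exceeded conventional dendritic cells, at 12.0 CPM, by 2.66 (8 of 8 libraries, exact permutation adjusted p = 0.0703), and dendritic, T, NK and B cells, from 12.0 down to 5.43 CPM, were not separated.

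Cxcr2 had a mean of 1051 CPM in Panc02-SIY neutrophils and of 2.56 to 4.90 CPM in the other 6 ranked classes, where neighbours did not differ. The gap from neutrophils to NK cells was 6.17 on the log2(CPM + 10) scale (SD 0.36, 8 of 8 libraries, exact permutation adjusted p = 0.0703). Cxcl3 stood at 150 CPM in neutrophils and 6.30 in macrophages (3.16 apart on that scale, exact permutation adjusted p = 0.0703). Cxcl1 stood at 9.11 and 1.58 CPM in those classes (0.63, higher in 6 of 8, exact permutation adjusted p = 0.188). Of all Cxcl3 UMIs in Panc02-SIY tumors, the neutrophil class held 134 of 392 untreated and 591 of 976 irradiated. Ungated barcodes, which were not ranked, held 102 and 146 of them, with a mean of 79.1 CPM (median 6.49).

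The 102 Panc02-SIY barcodes gated by mast cell or basophil markers reached 10 barcodes in 5 of 8 libraries and were not ranked. Their Cxcl2 mean of 178 CPM (0 to 783, median 21.6) rested on 97 UMIs and lay between those of monocytes and macrophages. Their Cxcr2 mean of 80.3 CPM (0 to 285, median 16.6) rested on 40 UMIs and lay above the other ranked classes and below neutrophils. No test was run on this class, and Cxcl1 and Cxcl3 had 0 UMIs in it.

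In MC38 tumors, where the neutrophil class was too small to rank, Cxcl2 stood at 708 CPM in macrophages, 392 in monocytes, 80.3 in T cells and 20.4 in NK cells. Macrophages exceeded monocytes in 6 of 6 libraries by 1.28 on the log2(CPM + 10) scale, and the exact permutation p of 0.0312, the smallest that 6 libraries allow, became 0.188 after adjustment. In all, 4 of the 36 pairs of neighbours passed at an adjusted p under 0.1, all in Panc02-SIY tumors.

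**Figure D5:**
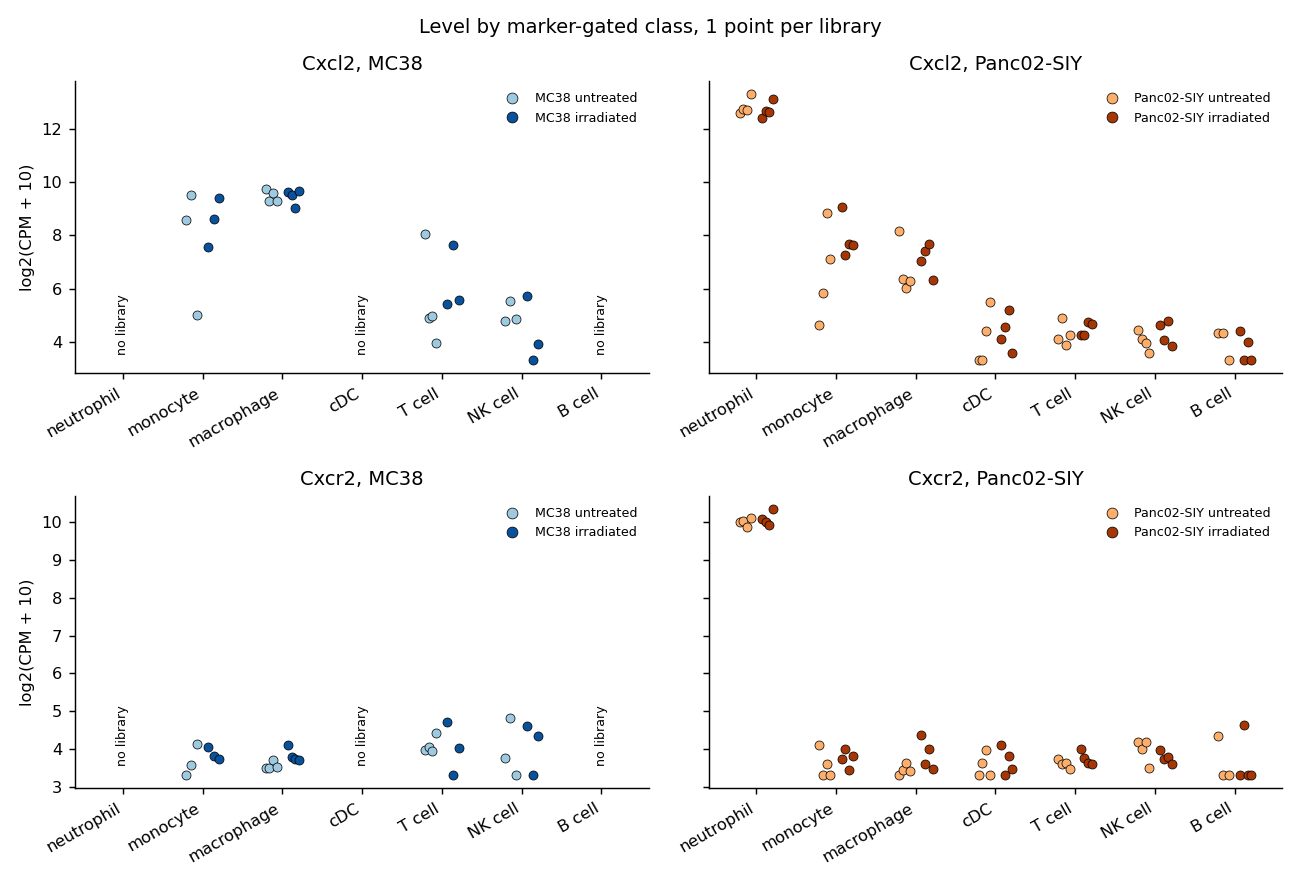
Cxcl2 and Cxcr2 levels, log2(CPM + 10), by cell class in MC38 and Panc02-SIY tumors, with 1 point per library that held at least 10 barcodes of the class. In Panc02-SIY tumors both genes are highest in neutrophils (means 7094 and 1051 CPM). Among the classes ranked in MC38 tumors, which leave out the few neutrophils, Cxcl2 is highest in macrophages (708 CPM).

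Cxcl2 was higher in MC38 than in Panc02-SIY macrophages, and radiation gave no call for it in either tumor. The level in untreated MC38 macrophages was 841, 611, 764 and 615 CPM (708 ± 114), and in untreated Panc02-SIY macrophages 277, 72.8, 54.6 and 68.6 CPM (118 ± 106). The log2 fold change of 2.96 was called (SE 0.47, adjusted p = 3.46e-04), in a comparison where 40% of 11918 genes were. After 12 Gy the levels were 785, 727, 514 and 810 CPM in MC38 (709 ± 135) and 120, 159, 194 and 70.9 CPM in Panc02-SIY (136 ± 53.1), a log2 fold change of 2.60 (SE 0.45, adjusted p = 6.45e-04, 41.2% of genes called).

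Against treatment, the log2 fold change of Cxcl2 in macrophages was 0.10 in MC38 (adjusted p = 0.963, 9.5% of genes called) and 0.46 in Panc02-SIY (adjusted p = 0.744, 3.93% called). The latter was called without untreated replicate 1 (1.03, adjusted p = 0.0896). A Cxcl2 UMI was found in 48.5% and 45.8% of MC38 macrophages and in 8.15% and 11.4% of Panc02-SIY macrophages, untreated and irradiated. Depth differed, with medians of 22135 and 15546 UMIs against 2454 and 3527, and after thinning to 1000 UMIs the shares were 24.0% and 22.7% against 3.99% and 5.05%. As background, NK cells, which should hold little Cxcl2, at median depths of 3018.5 to 6948 UMIs, had a UMI of it in 20.4% and 8.06% of MC38 and 3.01% and 4.55% of Panc02-SIY cells. After thinning, NK shares were 4.08% and 3.33% for MC38, against 0.728% and 0.741% for Panc02-SIY, all below the macrophage shares of the same group.

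The macrophage classes of the tumors were not alike in their own markers, which summed to 27150 to 31923 CPM in MC38 libraries and 12063 to 17650 CPM in Panc02-SIY libraries. Neutrophil markers in macrophages summed to 153 to 368 CPM in MC38 and 162 to 333 CPM in Panc02-SIY, so the tumors overlapped there. The part of these differences in the Cxcl2 level was not tested.

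For Cxcl1 and Cxcl3 the calls in macrophages rested on a few cells or libraries. Cxcl1 was called higher in irradiated MC38 than in irradiated Panc02-SIY macrophages (log2 fold change 2.60, adjusted p = 0.0784). Without MC38 replicate 4, where 1 barcode held 90 of 145 UMIs, it was 0.60 (adjusted p = 0.702), and the call was also lost without Panc02-SIY replicate 1 (2.46, adjusted p = 0.118), 2 (2.80, 0.115) or 4 (1.90, 0.284). Cxcl3 was called lower (-3.97, adjusted p = 0.085), and without Panc02-SIY replicate 2 it was 0.06 (adjusted p = 0.984). That call was also lost when any one MC38 replicate was left out. Cxcr2 was found in 3.72% and 6.37% of MC38 and 0.598% and 1.80% of Panc02-SIY macrophages, untreated and irradiated, at or below the shares in NK cells (6.12% and 6.45%, 3.16% and 1.71%) except in irradiated Panc02-SIY tumors.

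Monocytes spread widely. Cxcl2 ranged from 22.4 to 728 CPM in untreated MC38 and from 14.6 to 445 CPM in untreated Panc02-SIY monocytes, with means of 409 ± 246 and 263 ± 175 CPM after 12 Gy. It was not called with radiation in MC38 (0.04, adjusted p = 1) or Panc02-SIY (0.47, adjusted p = 0.954), nor between tumors (1.35, adjusted p = 0.414 untreated, and 0.92, adjusted p = 0.522 irradiated), with 0%, 0.0969%, 19.4% and 27.1% of genes called.

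T cells gave 2 calls, each on a few cells. Cxcl2 was higher in irradiated MC38 than in irradiated Panc02-SIY T cells (log2 fold change 2.88, SE 0.92, adjusted p = 0.0945, 10.1% of genes called). Of the 75 UMIs in MC38, 46 were in 1 barcode, and the call was lost when any one of the 7 libraries in the comparison was left out (adjusted p from 0.108 to 0.679, the latter with 1.43 without MC38 replicate 3). Cxcl3 was higher in untreated MC38 T cells (5.06, adjusted p = 0.095, 11.3% of genes called), from 26 UMIs of 1 barcode of replicate 1. Without that library the value was -5.19 (adjusted p = 0.835), and the call was also lost without MC38 replicate 3 (adjusted p = 0.107).

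Between the tumors, Cxcl2 was higher and Cxcr2 lower in MC38 over all CD45+ cells. In untreated tumors the log2 fold change, MC38 minus Panc02-SIY, was 1.48 for Cxcl2 (SE 0.20, adjusted p = 1.32e-05) and -2.87 for Cxcr2 (SE 0.34, adjusted p = 4.44e-06), with no overlap between the groups for either gene. These 2 of 4 members were called among 57.8% of all genes. In irradiated tumors, 3 of 4 were called among 54.7%. For Cxcl2 the irradiated groups overlapped, with MC38 libraries from 512 CPM and Panc02-SIY libraries up to 633 CPM. The log2 fold changes were 0.81 for Cxcl2 (SE 0.20, adjusted p = 0.00312), -3.19 for Cxcr2 (SE 0.35, adjusted p = 2.55e-06) and -5.86 for Cxcl3 (SE 1.34, adjusted p = 0.00219).

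With neutrophils left out, the Cxcl2 difference was 3.57 in untreated tumors (adjusted p = 1.87e-09) and 2.62 in irradiated ones (adjusted p = 5.39e-08). For Cxcr2 it was -0.40 (adjusted p = 0.356) and 0.03 (adjusted p = 0.958). Ppbp passed the count filter of this fit and was called higher in MC38 (3.98, adjusted p = 0.0351 untreated, and 4.03, adjusted p = 0.0176 irradiated). Those calls rest on 21 UMIs in MC38 against 3 in Panc02-SIY, with 11 in 1 barcode. In this fit 3878 of 14479 genes were called higher and 4550 lower untreated, and 3910 and 4042 irradiated. Scaling by library size alone put the median of all genes at -0.25 and -0.39 in these comparisons, against -0.07 and -0.03 with TMM scaling, and left Cxcl2 called in both, at 0.47 on the log2 scale in irradiated tumors (adjusted p = 0.0877). With that scaling 35.6% of calls between untreated tumors were upward, against 46.2% with TMM, and 27.8% between irradiated tumors, against 49.3%. The treatment comparisons gave 70.2% against 52.7% in Panc02-SIY tumors and 33.5% against 59.9% in MC38 tumors.

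Other genes of the pathway moved in the sum of Panc02-SIY cells. Of 9 other receptors listed for neutrophil attraction 6 rose with radiation and 0 fell (median log2 fold change 0.86 against -0.03 for all genes, of which 6.57% rose and 5.89% fell). The list also held the cytokine receptors Csf3r and Il17ra. This list and those below were chosen with earlier results of these data known, so their counts are a description only. Gate markers of neutrophils and monocytes also rose in this sum, as given above, and all genes are not a background matched to such cells. Ccr1, a receptor of Ccl3 and Ccl5, rose by 1.69 on the log2 scale from 42.2 to 135 CPM (adjusted p = 1.69e-04), and C5ar1, the receptor of complement C5a, by 1.13 (adjusted p = 0.0113). Ltb4r1, the leukotriene B4 receptor, rose by 1.87, Ptafr by 1.24, Csf3r, which is also a gate marker, by 0.86, and Il17ra by 0.47.

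Of 8 upstream cytokines tested, 4 rose and 0 fell (median 0.96). Il1b, which drives Cxcl1 and Cxcl2 transcription, rose by 1.09 from 626 to 1336 CPM (adjusted p = 8.01e-05), Il1a by 1.5, Osm by 1.42 and Tnf by 0.82. Of 15 NF-kB targets and feedback genes 8 rose (median 0.44), among them Tnfaip2 (1.32), Ptgs2 (0.98), Ier3 (0.96) and Zfp36 (0.80), an RNA-binding protein that shortens the life of chemokine mRNAs. Among 5 other ligands and receptors of the axis 2 rose, Cxcr1 at under 1 CPM (2.07, adjusted p = 0.0402) and Cxcr4, which holds neutrophils in marrow (0.86, adjusted p = 0.0652). Of 13 genes of receptor signaling and adhesion 2 rose, the integrin Itgam (1.33, adjusted p = 8.01e-05) and the neutrophil antigen Cd177 (1.97, adjusted p = 0.0497).

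In irradiated MC38 tumors the same lists were counted, and the difference between the tumors was not tested for them. Among the receptors listed for neutrophil attraction 2 of 9 rose, Ccr1 (0.64, adjusted p = 0.0617) and C5ar1 (0.77, adjusted p = 0.0791). Of the cytokines 1 of 8 rose, Il1b, by 0.63 from 2291 to 3554 CPM (adjusted p = 0.0047). Of the NF-kB genes 6 of 15 rose, Zfp36, Icam1, Nfkb1, Nfkbiz, Tnfaip3 and Ptgs2, by 0.42 to 0.58. Of the adhesion genes, Selplg and Itgb2 rose. No listed gene fell, and 5.57% of all genes rose and 3.72% fell.

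Within Panc02-SIY neutrophils, where 0.0257% of genes were called, no gene of any of these lists was called. Within macrophages Il1b rose with radiation in both tumors, by 0.92 in MC38 (adjusted p = 0.0016) and 0.99 in Panc02-SIY (adjusted p = 0.0034), where the Cxcl2 values above were not called. Between untreated tumors, MC38 macrophages held more C5ar1 (3.44), Ier3 (3.42), Osm (3.07), Ccr1 (3.06) and Il1b (1.32), and less Fpr1 (-6.27), Fpr2 (-5.00), Nfkbiz (-1.30), Nfkb1 (-1.06) and Csf3r (-0.96). In that comparison 40% of the 11918 genes tested were called.

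Over 22 combinations of class and group, the genes most like Cxcr2 in mean log2(CPM + 10) were Gm5483, Stfa2l1 and Il1f9, each with a Pearson r of 0.99 among 5999 genes ranked. For Cxcl2 they were Ccrl2 (0.96), C5ar1 (0.96) and Acod1 (0.95). For Cxcl3 they were Gm5483 (0.89), Ubap1 (0.88) and Stfa2l1 (0.88), and for Cxcl1 Gla (0.77), C5ar1 (0.75) and Cd33 (0.75). Each of these genes had its highest mean in Panc02-SIY neutrophils, and the 22 points share libraries and gates, so the coefficients describe a common pattern of levels and carry no test.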

How the data were processed

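Single-cell 3′ libraries of CD45+ tumor cells were made with the 10x kit. The authors demultiplexed with bcl2fastq 2.20.0 and counted UMIs with Cell Ranger 3.1.0 on mm10, and deposited a matrix of raw counts per library, which was used. A pooled matrix was not used. Barcodes shared between libraries of a tumor were kept in the richest library. Classes required at least 3 markers at 1 or more per 10000 UMIs. Counts were summed per library and class and tested with edgeR 4.0.16 (R 4.3.3, quasi-likelihood, TMM, minimum count 3, all groups in 1 fit), where each group had 3 libraries of at least 10 barcodes, with Benjamini-Hochberg adjustment over all genes. DESeq2 1.42.0 was an alternative, as were other scalings, filters, gates, thinning and leaving out each library. Shares and class orders used exact permutation (scipy 1.17.1). Scripts were tested on simulated data. The members, marker and gene lists were chosen with earlier results of these data known. Named genes were the 5 members, up to 6 called genes per list with the smallest adjusted p, and the 3 genes most like each member. Depth was 1385711 to 43708746 UMIs per library. A result on the adhesion list is not reported here.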

Additional observations from a re-analysis of the deposited data

Results flagged for a closer look

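In 48 groups of 4 libraries screened for a library far from the others, 10 stood apart. Chance alone flags about 1 in 20 groups of independent, normally spread values. Many of the screened groups are sparse or share cells, so their count is not set against that rate. Cxcl3 stood apart in all CD45+ cells of MC38 untreated replicate 1 (5.94 CPM) and in its T cells (150 CPM), both through the 26 UMIs of 1 barcode. The T cells of that library also stood apart in Cxcl2 (253 CPM), with 44 UMIs in 1 barcode.

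In Panc02-SIY tumors, Cxcl2 stood high in the macrophages of untreated replicate 1 (277 CPM) and in the monocytes of irradiated replicate 1 (524 CPM). Cxcl3 stood high in the macrophages of irradiated replicate 2 (35.6 CPM) and in the T cells of untreated replicate 4 (2.51 CPM), and Cxcl1 in the neutrophils of irradiated replicate 3 (25.3 CPM).

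The neutrophil share was high in MC38 irradiated replicate 2 (1.56%) and low in Panc02-SIY irradiated replicate 4 (7.93%).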

How the results depend on the processing

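Sparse members depend on single barcodes, MC38 neutrophils cannot be tested, and shared barcodes in MC38 libraries leave 42.8% to 86.4% of UMIs. Of 853 alternatives for 43 single values, 730 kept direction and side of the threshold, 74 lost a call, 27 gained one and 22 reversed. Causes were not tested unless the construction shows them.

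Members called, summed over populations, were 0 in irradiated against untreated MC38 and 1 with a stricter gate. For Panc02-SIY they were 2, with 1 when only its groups were fitted, neutrophils were left out, or neutrophils, mixed and ungated barcodes were left out, 3 with the replicate block, and 1 to 4 without single libraries (4 without untreated replicate 1 or irradiated replicate 4). Between untreated tumors they were 4, with 10 using all barcodes and 4 to 6 without single libraries. Between irradiated tumors they were 7, with 4 under the replicate block or at an adjusted p under 0.05. Without single libraries they were 4 to 8 (4 without MC38 irradiated replicate 4). Of all genes in all CD45+ cells, 9.29% were called in MC38, 12.5% in Panc02-SIY, 57.8% between untreated and 54.7% between irradiated tumors. In macrophages the shares were 9.5%, 3.93%, 40% and 41.2%, and in T cells, between tumors, 11.3% and 10.1%. Shares under the alternatives are not given, so the counts of members show only how calls moved. Of the class pairs 4 passed, 7 with all barcodes, and 0 to 4 without single libraries (0 without any Panc02-SIY library, where the smallest p cannot pass). The neutrophil share differences without single libraries were 4.77 to 7.22 points (Panc02-SIY), 0.158 to 0.539 (MC38), -7.61 to -6.13 (untreated tumors) and -13.8 to -11.4 (irradiated tumors).

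The replicate block called Cxcl3 in irradiated Panc02-SIY tumors (2.05, adjusted p = 0.040) and between untreated tumors (-1.83, adjusted p = 0.066), and lost Cxcl1 (adjusted p = 0.127) and Cxcl3 (0.163) in irradiated macrophages and Cxcl2 (0.18) and Cxcl3 (0.188) in T cells. Same-numbered untreated and irradiated libraries of a tumor did not all deviate together. Over all CD45+ cells MC38 correlations were 0.08, -0.04, 0.05 and 0.02, and those of Panc02-SIY 0.40, -0.16, 0.32 and 0.75. Irradiated Panc02-SIY libraries 1, 3 and 4 correlated best with their own number, and library 2 with number 1 (0.26). Since not every library correlated best with its own number, the numbers were not taken as pairs. Whether Panc02-SIY libraries of a number share a batch was not tested.

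Signs reversed with the barcodes left out, as given above for Cxcl2 in MC38 (-0.0055) and Cxcr2 between irradiated tumors (0.028, 0.69), and for Cxcl3 (0.80) and Cxcr2 (0.10) between untreated tumors and the Cxcr2 interaction (0.43, 0.58). Cxcl2 reversed with the stricter gate in MC38 macrophages (-0.094) and Panc02-SIY monocytes (-0.16) and with all barcodes in MC38 monocytes (-0.091). Without single libraries Cxcl1 ranged over -0.78 to 1.85 (MC38) and -0.19 to 2.16 (irradiated tumors), Cxcl2 over -0.51 to 0.94 and -0.073 to 1.72 in MC38 and Panc02-SIY monocytes, -0.32 to 0.10 in neutrophils and -0.0083 to 0.90 for monocytes minus macrophages, Cxcr2 over -0.037 to 0.19 in neutrophils, and Cxcl3 over -5.19 to 5.49 in T cells and -5.04 to 0.060 in macrophages.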
